A study of Homo sapiens with 12 samples.

Results

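The genes described here encode the glutathione and thioredoxin systems and enzymes that are classically controlled by the transcription factor NRF2 or that act beside it. They were taken as a list of 40 human genes, chosen with earlier results of these data known. Each gene was read from the brightest probe set (by its average across the 12 arrays) among those annotated to that symbol alone. Values were obtained for 39 of the 40 genes, out of 19775 genes tested on the arrays. FTH1 was not analysed here because no probe set was annotated to it alone. The 39 genes were taken in 9 groups by role: NRF2 and its inhibitor, superoxide and peroxide enzymes, glutathione peroxidases, glutathione synthesis and recycling, glutathione transferases, the thioredoxin system, quinone and carbonyl reductases, NADPH supply, and heme and iron.

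Glutathione is a small thiol that peroxidases oxidize to remove peroxides, that transferases attach to reactive compounds, and that glutathione reductase returns to its reduced form with NADPH. Thioredoxin is a small protein that reduces disulfides in other proteins and is itself recharged by NADPH through thioredoxin reductase. NRF2, encoded by NFE2L2, is held at low level by KEAP1 and, when released, binds antioxidant response elements in the promoters of many of these genes.

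RNA came from PC9, a lung adenocarcinoma cell line with an activating EGFR mutation, after 24 h in DMSO or in erlotinib at 2 μM, which blocks the kinase activity of EGFR. PC9 cells with a lentiviral GFP vector were set against PC9 cells made to express pre-miR-371, the precursor of miR-371, to ask what the miRNA changes in the presence and absence of drug. The 4 groups were GFP vector in DMSO, pre-miR-371 in DMSO, GFP vector in erlotinib and pre-miR-371 in erlotinib, each with 3 Affymetrix Hgu133plus2 arrays. Each kind of cell was 1 stable line, so an effect of the miRNA and a difference between the particular lines cannot be told apart. The methods call replicates across the study biological, without naming these arrays, and no label links single arrays with separate cultures. P-values measure only the spread between these arrays.

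The arrays do not read the miRNA itself. The construct encodes the hairpin that is cut to the mature arms below, shown because they are what separates the lines by design, with the seed (bases 2 to 8) in capitals, from RefSeq on GRCh38.p14, plus strand.
hsa-miR-371a-3p, chr19:53787716-53787738: aAGUGCCGccaucuuuugagugu
hsa-miR-371a-5p, chr19:53787680-53787699: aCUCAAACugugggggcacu

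All values are deposited log2 expression values, normalized by the authors, so a difference of 1 is a change of 2-fold. The number of arrays limits the precision. Medians of the arrays over all probe sets lay between 4.31 and 4.41, and no 2 arrays of a group correlated below 0.9966. Upper quartiles in DMSO were 6.92, 6.81 and 6.77 in GFP vector cells and 6.74, 6.74 and 6.72 in pre-miR-371 cells. In erlotinib they were 6.88, 6.85 and 6.83 in GFP vector cells and 6.83, 6.81 and 6.78 in pre-miR-371 cells. The 7 epithelial genes checked, among them EPCAM, KRT7 and EGFR, had group means between 10.4 and 13.7. Of the fibroblast, leukocyte and endothelial genes, all had means under 6 except COL1A1 and PECAM1. PECAM1 had a mean of 7.90 in GFP vector cells in DMSO and 9.17 in erlotinib, and its part in the results was not tested. Of the 39 genes, 38 had a mean of at least 6. SOD2, the mitochondrial superoxide dismutase, had a mean of 5.56 on its only usable probe set, near background (a mean under 6).

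Erlotinib moved most of the 39 genes, and more of them up than down. In GFP vector cells 23 rose and 7 fell (adjusted p under 0.05 from limma, Benjamini-Hochberg over all genes tested), where 26.5% of all genes tested rose and 23.4% fell. In pre-miR-371 cells 23 rose and 7 fell, where 24.8% of all genes tested rose and 22.2% fell. The genes that rose were thus 59.0% of the list in each line, and the genes that fell were 17.9%. The median log2 fold change of the list was 0.19 in GFP vector cells, with 0.22 in the pre-miR-371 line, where the medians over all genes tested were 0.00 and -0.03. The median size of the change, regardless of direction, was 0.37 in both lines, against 0.23 and 0.22 over all genes. Of the 39 genes 38 had a mean of at least 6, whereas the medians of the arrays over all probe sets lay between 4.31 and 4.41. Dim genes are counted in the shares of all genes. What part brightness had in these comparisons was not tested.

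The lines share no array in this comparison, but the fit gave them a common estimate of the spread of each gene. Of the 39 genes, 22 rose in both lines, against 22.4% of all genes tested, and 6 fell in both, against 19.2%. BLVRA passed as higher and TXNRD1 as lower in GFP vector cells only, and GSR as higher and TXNRD2 as lower in pre-miR-371 cells only, and none of these 4 passed the test of the difference between the lines. The other 7, namely KEAP1, SOD2, GPX3, GCLM, GSS, ME1 and TFRC, passed in neither line, with log2 fold changes between -0.30 and 0.16. When a fold over 1.5 was also required, 11 of the 39 rose and 3 fell in GFP vector cells. Of all genes tested 14.1% rose and 11.7% fell by that rule. In pre-miR-371 cells 11 rose and 2 fell by that rule, where the shares were 12.6% and 9.33%. Centring the arrays on their medians ended the calls of FTL, GSTM3 and MGST1 in both lines, of BLVRA in GFP vector cells and of SOD1 and GSR in pre-miR-371 cells. Fitting only the arrays of a line ended those of SOD1 in both lines and of MGST1, TXNRD1, BLVRA and FTL in GFP vector cells, and averaging the probe sets of a gene ended those of NFE2L2, MGST1, MGST3 and TXN in both lines, of TXNRD1 and BLVRA in GFP vector cells and of GSR and TXNRD2 in pre-miR-371 cells. Repeating quantile normalization ended those of SOD1 in both lines and of MGST1 and TXNRD1 in GFP vector cells. Testing every probe set ended those of MGST1, TXNRD1 and BLVRA in GFP vector cells and of SOD1 and TXNRD2 in pre-miR-371 cells. A fit with trend and robust variance, and a fit with array weights, each ended that of TXNRD2 in pre-miR-371 cells.

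**Figure D1:**
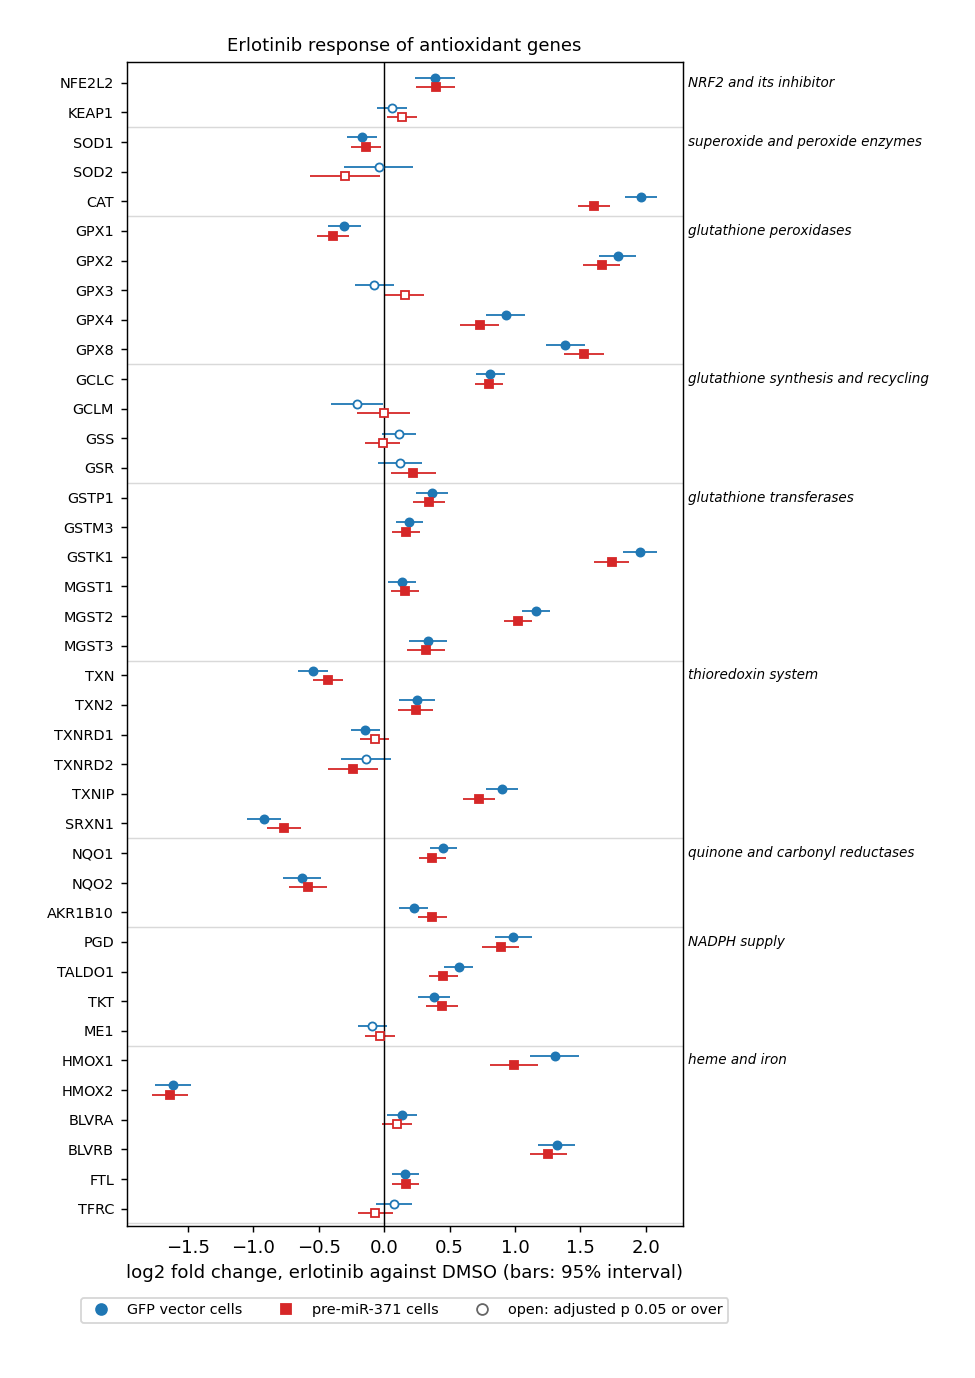
Log2 fold change of erlotinib against DMSO for the 39 genes, grouped by role, in GFP vector cells (circles) and pre-miR-371 cells (squares). Bars are 95% intervals from limma and open symbols have an adjusted p of 0.05 or over. CAT and GSTK1 lie near 2 and HMOX2 near -1.6 in GFP vector cells, all 6 glutathione transferases lie above 0, and the 2 lines lie close together for most genes.

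Of NRF2 and its inhibitor, NFE2L2 rose and KEAP1 did not pass. NFE2L2 read 10.73, 10.68 and 10.63 in GFP vector cells in DMSO and 11.07, 11.06 and 11.07 in erlotinib. In pre-miR-371 cells it read 10.63, 10.74 and 10.85 in DMSO and 11.04, 11.14 and 11.23 in erlotinib. Every erlotinib array was thus above every DMSO array, with log2 fold changes of 0.39 (SE 0.07, adjusted p = 0.000398 from limma) and 0.39 (SE 0.07, adjusted p = 0.000409). A second NFE2L2 probe set, with a mean of 5.66 near background, went the other way (-0.63 and -0.31). KEAP1, which targets NRF2 for degradation, had log2 fold changes of 0.06 and 0.14, the second with an adjusted p of 0.0520 from limma.

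The largest rise of the list in GFP vector cells was that of CAT, catalase, the enzyme that splits hydrogen peroxide to water and oxygen in peroxisomes (chr11:34438934-34472060). It read 9.52, 9.34 and 9.40 in GFP vector cells in DMSO and 11.40, 11.41 and 11.35 in erlotinib. In pre-miR-371 cells it read 9.51, 9.49 and 9.48 in DMSO and 11.13, 11.10 and 11.06 in erlotinib. The lines overlapped in DMSO and lay apart in erlotinib, where the pre-miR-371 arrays were the lower ones. CAT rose 3.90-fold in GFP vector cells (log2 fold change 1.96, SE 0.06, adjusted p = 5.60e-11 from limma), compared with 3.04-fold (1.61, SE 0.06, adjusted p = 4.22e-10) in the pre-miR-371 line. A second CAT probe set, with a mean of 7.91, rose by 1.71 and 1.43. SOD1, the cytosolic superoxide dismutase, fell by 0.17 in GFP vector cells and by 0.14 in pre-miR-371 cells. The SOD1 call was lost without GFP vector erlotinib replicate 3 in the former (adjusted p = 0.0520 from limma) and without any of 10 of the 12 arrays in the latter (up to 0.140). SOD2 did not pass in either line (-0.04 and -0.30).

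Of the 5 glutathione peroxidases, GPX2, GPX4 and GPX8 rose and GPX1 fell in both lines. GPX2, the gastrointestinal peroxidase of epithelial cells, read 10.01, 9.92 and 9.89 in GFP vector cells in DMSO and 11.81, 11.68 and 11.69 in erlotinib. In pre-miR-371 cells it read 9.67, 9.78 and 9.69 in DMSO and 11.45, 11.39 and 11.29 in erlotinib. The 4 groups did not overlap, and the pre-miR-371 arrays were the lower ones under each treatment. The rise was 3.45-fold in GFP vector cells (log2 fold change 1.78, SE 0.07, adjusted p = 3.94e-10 from limma), compared with 3.17-fold (1.66, SE 0.07, adjusted p = 9.65e-10) in the pre-miR-371 line. GPX8, a peroxidase of the endoplasmic reticulum, rose by 1.39 and 1.53 on the log2 scale. GPX4, which reduces lipid peroxides in membranes and restrains ferroptosis, rose by 0.93 and 0.73. GPX1, the abundant cytosolic enzyme, went from a mean of 11.27 (SD 0.08, n = 3) to 10.96 (SD 0.05, n = 3) in GFP vector cells, without overlap, a change of -0.30 (SE 0.06, adjusted p = 0.000546 from limma), and changed by -0.39 in pre-miR-371 cells. GPX3, the secreted enzyme, did not pass in either line (-0.08 and 0.16). A second GPX3 probe set, with a mean of 7.31, was lower in GFP vector cells (-0.31, adjusted p = 0.0282 from limma with every probe set tested) and had -0.04 in pre-miR-371 cells.

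The enzymes that make and recycle glutathione moved less together. GCLC, the catalytic subunit of glutamate-cysteine ligase, the rate-limiting enzyme of glutathione synthesis, read 10.31, 10.33 and 10.35 in GFP vector cells in DMSO and 11.20, 11.10 and 11.13 in erlotinib. In pre-miR-371 cells GCLC read 10.17, 10.16 and 10.17 in DMSO and 10.99, 10.97 and 10.94 in erlotinib. All erlotinib arrays lay above all DMSO arrays, with log2 fold changes of 0.81 (SE 0.05, adjusted p = 2.67e-08 from limma) and 0.80 (SE 0.05, adjusted p = 4.31e-08). GCLM, the regulatory subunit of the same enzyme, did not pass in either line, at -0.21 and 0.00. GSS, which adds glycine in the last step of synthesis, did not pass either (0.11 and -0.01). GSR, glutathione reductase, passed in pre-miR-371 cells (0.22, adjusted p = 0.0314 from limma) and not in GFP vector cells (0.12). The GSR call was lost without any of the 3 pre-miR-371 DMSO arrays or without pre-miR-371 erlotinib replicate 2 or 3 (adjusted p up to 0.101 from limma). A second GSR probe set, with a mean of 7.62, was lower in GFP vector cells, opposite in sign to the first (-0.23, adjusted p = 0.0138 from limma with every probe set tested). It had 0.00 in pre-miR-371 cells.

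All 6 glutathione transferases rose in both lines, although GSTM3 and MGST1 no longer passed in either when arrays were centred on their medians. GSTK1, the mitochondrial and peroxisomal transferase of the kappa class, read 10.19, 10.14 and 10.06 in GFP vector cells in DMSO and 12.14, 12.02 and 12.08 in erlotinib. In pre-miR-371 cells it read 10.12, 10.15 and 10.18 in DMSO and 11.94, 11.92 and 11.81 in erlotinib. The lines overlapped in DMSO and lay apart in erlotinib, as for CAT. The rise of GSTK1 was 3.87-fold (log2 fold change 1.95, SE 0.06, adjusted p = 1.04e-10 from limma) and 3.34-fold (1.74, SE 0.06, adjusted p = 3.82e-10). MGST2, a membrane-bound transferase that can also make leukotriene C4, read 9.03, 8.98 and 8.97 in GFP vector cells in DMSO and 10.17, 10.12 and 10.17 in erlotinib. In pre-miR-371 cells MGST2 read 8.90, 8.85 and 8.83 in DMSO and 9.92, 9.88 and 9.84 in erlotinib, so that here too the 4 groups did not overlap. It rose 2.24-fold and 2.03-fold. The other 4 rose by less: GSTP1, the pi-class enzyme common in lung tumours, by 0.37 and 0.34, MGST3 by 0.33 and 0.32, GSTM3 by 0.19 and 0.17, and MGST1 by 0.14 and 0.16. The MGST1 call was lost in GFP vector cells without any of 5 arrays, namely GFP vector DMSO replicate 1 or 2 or any GFP vector erlotinib array (adjusted p up to 0.0872 from limma). It was lost in pre-miR-371 cells without pre-miR-371 DMSO replicate 3 or erlotinib replicate 1 (up to 0.0631).

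The thioredoxin system split, with 2 genes higher and 3 lower in each line. TXN, cytosolic thioredoxin, read 13.04, 13.04 and 13.07 in GFP vector cells in DMSO and 12.50, 12.51 and 12.51 in erlotinib. In pre-miR-371 cells it read 13.10, 13.13 and 13.24 in DMSO and 12.72, 12.70 and 12.76 in erlotinib. All erlotinib arrays lay below all DMSO arrays, with log2 fold changes of -0.55 (SE 0.05, adjusted p = 1.73e-06 from limma) and -0.43 (SE 0.05, adjusted p = 1.83e-05). A second TXN probe set, with a mean of 5.83 near background, went the other way in GFP vector cells (0.72). SRXN1, sulfiredoxin, which restores overoxidized peroxiredoxins, read 10.32, 10.31 and 10.28 in GFP vector cells in DMSO and 9.37, 9.41 and 9.38 in erlotinib. In pre-miR-371 cells SRXN1 read 10.23, 10.12 and 10.07 in DMSO and 9.46, 9.37 and 9.29 in erlotinib. Its log2 fold changes were -0.92 (SE 0.06, adjusted p = 5.87e-08 from limma) and -0.77 (SE 0.06, adjusted p = 3.96e-07), the largest falls of the list after that of HMOX2.

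TXNIP, the inhibitor that binds reduced thioredoxin, rose while TXN fell. It read 10.91, 10.97 and 11.02 in GFP vector cells in DMSO and 11.88, 11.83 and 11.88 in erlotinib. In pre-miR-371 cells TXNIP read 11.03, 10.95 and 10.88 in DMSO and 11.67, 11.70 and 11.68 in erlotinib, and the log2 fold changes were 0.90 and 0.73. TXN2, the mitochondrial thioredoxin, read 10.03, 10.01 and 9.94 in GFP vector cells in DMSO and 10.25, 10.23 and 10.26 in erlotinib. In pre-miR-371 cells TXN2 read 9.77, 9.80 and 9.79 in DMSO and 10.15, 10.01 and 9.92 in erlotinib, and the rises were 0.25 and 0.24. Under each treatment the TXN2 arrays of pre-miR-371 cells lay below those of GFP vector cells. TXNRD1, the cytosolic reductase, passed as lower in GFP vector cells (-0.14, adjusted p = 0.0352 from limma) and had -0.07 in pre-miR-371 cells. TXNRD2, the mitochondrial reductase, passed as lower in pre-miR-371 cells (-0.24, adjusted p = 0.0406 from limma) and had -0.14 in GFP vector cells. Leaving out any of 6 arrays ended the call of TXNRD1 (adjusted p up to 0.129 from limma), and any of 7 that of TXNRD2 (up to 0.143).

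**Figure D2:**
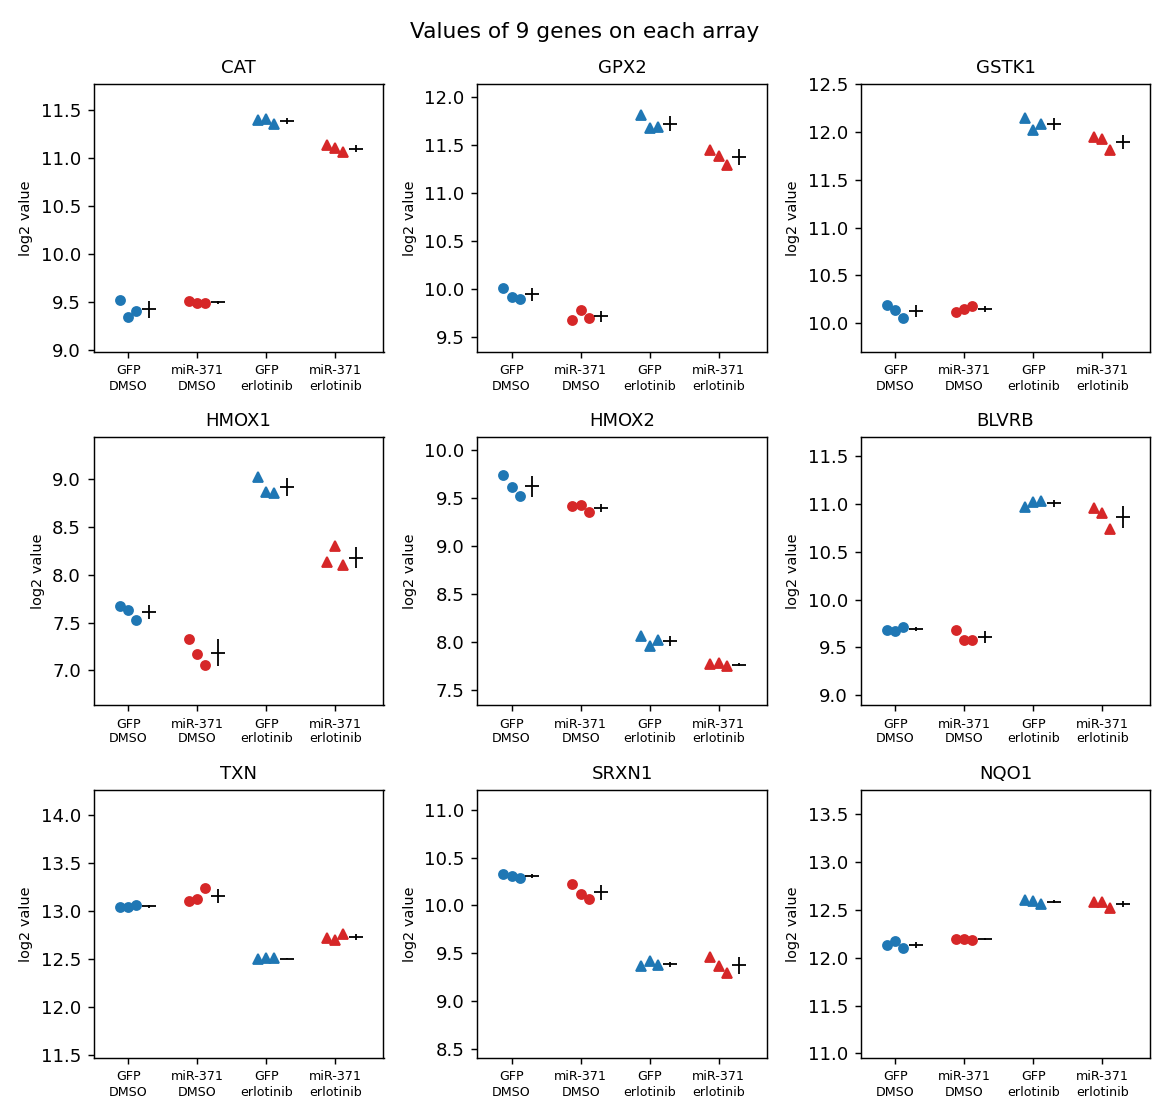
Log2 value of 9 genes on each of the 12 arrays, in GFP vector cells (blue) and pre-miR-371 cells (red) in DMSO (circles) and erlotinib (triangles), with the group mean and SD in black beside the points. Every panel spans 2.8 log2 units. CAT, GPX2, GSTK1, HMOX1, BLVRB and NQO1 stand higher in erlotinib and HMOX2, TXN and SRXN1 lower, and the pre-miR-371 arrays of HMOX1 lie below those of GFP vector cells under both treatments.

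Of the quinone and carbonyl reductases, NQO1 and AKR1B10 rose and NQO2 fell in both lines. NQO1, the NRF2 target that reduces quinones in a single step with both electrons, read 12.13, 12.17 and 12.10 in GFP vector cells in DMSO and 12.60, 12.59 and 12.57 in erlotinib. In pre-miR-371 cells it read 12.20, 12.20 and 12.18 in DMSO and 12.58, 12.58 and 12.52 in erlotinib. The log2 fold changes were 0.45 (SE 0.05, adjusted p = 4.59e-06 from limma) and 0.37 (SE 0.05, adjusted p = 3.36e-05), and the other NQO1 probe sets rose as well. NQO2, a related enzyme that does not use NADPH well, read 9.55, 9.38 and 9.32 in GFP vector cells in DMSO and 8.75, 8.79 and 8.83 in erlotinib, a change of -0.63, and changed by -0.58 in pre-miR-371 cells. AKR1B10, an aldo-keto reductase, rose by 0.23 and 0.37.

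Of the NADPH-supplying enzymes, the 3 of the pentose phosphate pathway rose in both lines. PGD, 6-phosphogluconate dehydrogenase, which itself yields NADPH, read 10.55, 10.57 and 10.47 in GFP vector cells in DMSO and 11.61, 11.45 and 11.49 in erlotinib. In pre-miR-371 cells PGD read 10.41, 10.46 and 10.44 in DMSO and 11.22, 11.40 and 11.37 in erlotinib, with log2 fold changes of 0.99 (SE 0.07, adjusted p = 5.94e-08 from limma) and 0.89 (SE 0.07, adjusted p = 2.00e-07). The enzymes of its non-oxidative branch rose by less, TALDO1 (transaldolase) by 0.57 and 0.45 and TKT (transketolase) by 0.38 and 0.44. ME1, the cytosolic malic enzyme, did not pass in either line (-0.09 and -0.03). A second ME1 probe set, with a mean of 9.06, was lower in GFP vector cells (-0.29, adjusted p = 0.00804 from limma with every probe set tested) and had -0.09 in pre-miR-371 cells.

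The heme oxygenases moved in opposite directions. HMOX1, the inducible enzyme that cleaves heme to biliverdin, carbon monoxide and iron, read 7.67, 7.63 and 7.53 in GFP vector cells in DMSO and 9.02, 8.87 and 8.85 in erlotinib. In pre-miR-371 cells HMOX1 read 7.33, 7.17 and 7.06 in DMSO and 8.13, 8.30 and 8.10 in erlotinib. The 4 groups did not overlap, and the pre-miR-371 arrays were the lower ones under each treatment, as for GPX2. HMOX1 rose 2.47-fold (log2 fold change 1.30, SE 0.09, adjusted p = 5.76e-08 from limma) and 1.99-fold (0.99, SE 0.09, adjusted p = 8.67e-07). HMOX2, the constitutive enzyme, read 9.74, 9.62 and 9.52 in GFP vector cells in DMSO and 8.06, 7.95 and 8.02 in erlotinib. In pre-miR-371 cells HMOX2 read 9.42, 9.43 and 9.35 in DMSO and 7.77, 7.78 and 7.74 in erlotinib. The drop was seen on every array, and HMOX2 was 3.07-fold and 3.11-fold lower in erlotinib (log2 fold changes -1.62 and -1.64, both SE 0.06, adjusted p = 6.58e-10 and 7.96e-10 from limma), and a second HMOX2 probe set fell by 1.15 and 0.96.

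BLVRB, the biliverdin and flavin reductase, read 9.68, 9.67 and 9.71 in GFP vector cells in DMSO and 10.97, 11.02 and 11.03 in erlotinib. In pre-miR-371 cells BLVRB read 9.68, 9.57 and 9.57 in DMSO and 10.95, 10.90 and 10.74 in erlotinib, and it rose 2.49-fold and 2.39-fold. BLVRA, the main biliverdin reductase of adult tissue, passed in GFP vector cells (0.13, adjusted p = 0.0492 from limma) but did not in pre-miR-371 cells (0.10). The call of BLVRA survived the loss of GFP vector DMSO replicate 3 and of no other array (adjusted p up to 0.145 from limma). FTL, the light chain of the iron store ferritin, had a log2 fold change of 0.16 in both lines, and its call was lost in both with arrays centred on their medians (adjusted p = 0.115 and 0.0528 from limma). TFRC, the transferrin receptor that brings iron into the cell, did not pass (0.08 and -0.07), whereas a second TFRC probe set was lower in pre-miR-371 cells (-0.19, adjusted p = 0.0250 from limma with every probe set tested) and had -0.04 in GFP vector cells. A further TFRC probe set, with a mean of 5.80 near background, fell in both lines. Its log2 fold changes were -0.64 and -0.59 (adjusted p = 0.00353 and 0.00703 from limma with every probe set tested).

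Antioxidant response elements were looked for as the letters TGACNNNGC, on both strands, in the 250 bases before the annotated starts, with sequences from RefSeq on GRCh38.p14. Of the 40 listed genes 32 had a promoter in that table, and 7 of these (21.9%) held a match, against 13.2% of 27305 genes and 10.9% of 35116 promoters. The letters overlap the AP-1 motif TGACTCA, which lies inside the matches of GSTP1 and ME1. Matches are shown on the gene's strand with the match in capitals, because these genes are counted as one family here and their erlotinib responses can be read beside them.
GPX2, chr14:64942844-64942882, minus strand: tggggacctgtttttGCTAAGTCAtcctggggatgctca
GSTP1, chr11:67583731-67583769, plus strand: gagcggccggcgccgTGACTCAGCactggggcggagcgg
PGD, chr1:10398848-10398886, plus strand: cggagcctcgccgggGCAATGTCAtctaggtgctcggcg
GCLM, chr1:93909441-93909479, minus strand: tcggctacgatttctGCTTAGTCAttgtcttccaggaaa
ME1, chr6:83431165-83431203, minus strand: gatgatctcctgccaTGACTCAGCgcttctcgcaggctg
TXNRD1, chr12:104215665-104215703, plus strand: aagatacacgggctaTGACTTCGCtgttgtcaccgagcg
TXNRD1, second start, chr12:104286915-104286953, plus strand: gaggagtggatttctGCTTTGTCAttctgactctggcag
KEAP1, chr19:10502779-10502817, minus strand: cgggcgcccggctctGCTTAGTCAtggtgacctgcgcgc
KEAP1, second match, chr19:10502802-10502840, minus strand: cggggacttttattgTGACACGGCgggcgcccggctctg

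Beside these sequences, GPX2, GSTP1 and PGD rose in both lines, GCLM, ME1 and KEAP1 passed in neither, and TXNRD1 passed as lower in GFP vector cells. A match describes these letters only and is neither a bound site nor a cause. For a gene that was searched, no match says only that the letters are not in this window. GSS, FTH1, HMOX1, TXN2, GSR, SOD1, MGST2 and AKR1B10 had no promoter sequence available here and were not searched.

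The wider pathway was followed in 72 other genes of the same systems, of which 65 were measured. Of these 31 rose and 20 fell in GFP vector cells, where 26.5% and 23.4% of all genes tested did. In pre-miR-371 cells 29 rose and 19 fell, where the shares of all genes were 24.8% and 22.2%. Those with the smallest p in both lines were MAFF, SLC40A1 and IDH1. MAFF, a small MAF protein that pairs with NRF2 on DNA, had log2 fold changes of -3.03 (adjusted p = 1.05e-11 from limma) and -3.18. SLC40A1, ferroportin, the exporter of iron, rose by 3.41 and 3.26. IDH1, which makes cytosolic NADPH from isocitrate, rose by 2.41 and 2.26, and ME2, the mitochondrial malic enzyme, changed by -1.84 and -1.66. GSTA4, the alpha-class transferase that conjugates hydroxynonenal, rose by 2.82 and 2.84.

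Between the lines in DMSO, only HMOX1 of the 39 genes passed, and it was lower in pre-miR-371 cells. The count of lower genes was 8 when a mean of at least 6 was required or trend and robust variance were used, and 9 with array weights. By the main fit 0 of the 39 were higher, where 1.62% of all genes tested were. It put 1 (2.56%) lower, where 3.64% of all genes were (adjusted p under 0.05 from limma). At an unadjusted p under 0.05, 0 of the 39 were higher, where 9.02% of all genes tested were. Lower by that rule were 11 of the 39, where 13.8% of all genes were. The median log2 difference of the list was -0.04, against 0.00 over all genes tested. HMOX1 was 1.34-fold lower, and its 3 pre-miR-371 arrays all lay below the 3 GFP vector arrays given above. Dropping replicate 1 or 2 of the GFP vector arrays, or replicate 2 or 3 of the pre-miR-371 arrays, ended this call (adjusted p up to 0.0784 from limma), as did a fit of the DMSO arrays alone. The differences of the other 38 genes lay between -0.23 and 0.11.

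Under erlotinib more of the genes passed, mostly as lower in pre-miR-371 cells. Of the 39, 1 (2.56%) was higher, where 6.5% of all genes tested were. Another 9 (23.1%) were lower, where 9.46% of all genes were (adjusted p under 0.05 from limma). The 9 were CAT, GPX2, GCLC, GSTK1, MGST2, TXN2, TXNIP, HMOX1 and HMOX2. In DMSO their log2 differences were, in the same order, 0.07, -0.23, -0.16, 0.02, -0.13, -0.21, -0.01, -0.43 and -0.23. A call in erlotinib alone thus does not show a difference that arose with the drug. Over all genes tested, too, more passed between the lines in erlotinib than in DMSO. At an unadjusted p under 0.05, 4 of the 39 were higher, where 12.8% of all genes tested were. Lower by that rule were 15 of the 39, where 17.7% of all genes were. The median log2 difference of the list was -0.08, against -0.01 over all genes tested.

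HMOX1 had the largest difference, being 1.67-fold lower in pre-miR-371 cells, and HMOX1 alone was past 1.5-fold. Of all genes tested 0.551% were lower and 0.688% higher by that fold and the adjusted p. GPX2 differed by -0.35 (SE 0.07, adjusted p = 0.00484 from limma), CAT by -0.29 (SE 0.06, adjusted p = 0.00628) and MGST2 by -0.27 (SE 0.05, adjusted p = 0.00467). These 3 and HMOX1 passed without any 1 of the 12 arrays. HMOX2 differed by -0.25 (SE 0.06, adjusted p = 0.0209 from limma), TXN2 by -0.22, GSTK1 by -0.19, TXNIP by -0.18 and GCLC by -0.18. For GSTK1 the adjusted p from limma rounded to the threshold of 0.05 and lay just under it. TXN was the gene that was higher in pre-miR-371 cells, by 0.22 (SE 0.05, adjusted p = 0.0142 from limma).

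Leaving out single arrays ended 6 of these 10 calls. That of TXN ended when pre-miR-371 erlotinib replicate 3 was dropped (adjusted p = 0.0532 from limma). That of HMOX2 was lost without GFP vector erlotinib replicate 1 or 3 or pre-miR-371 erlotinib replicate 2 or 3 (up to 0.0746). That of GCLC was lost without GFP vector erlotinib replicate 1 or 3 or any pre-miR-371 erlotinib array (up to 0.108). Those of TXNIP, TXN2 and GSTK1 were lost without any of 8, 9 and 10 of the 12 arrays (up to 0.114, 0.134 and 0.169). The calls of GCLC, GSTK1, TXN2 and TXNIP were also lost with only the erlotinib arrays fitted, with every probe set tested and with arrays centred on their medians, and those of CAT, GPX2, GCLC, TXN, TXN2 and HMOX2 with the probe sets of a gene averaged.

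**Figure D3:**
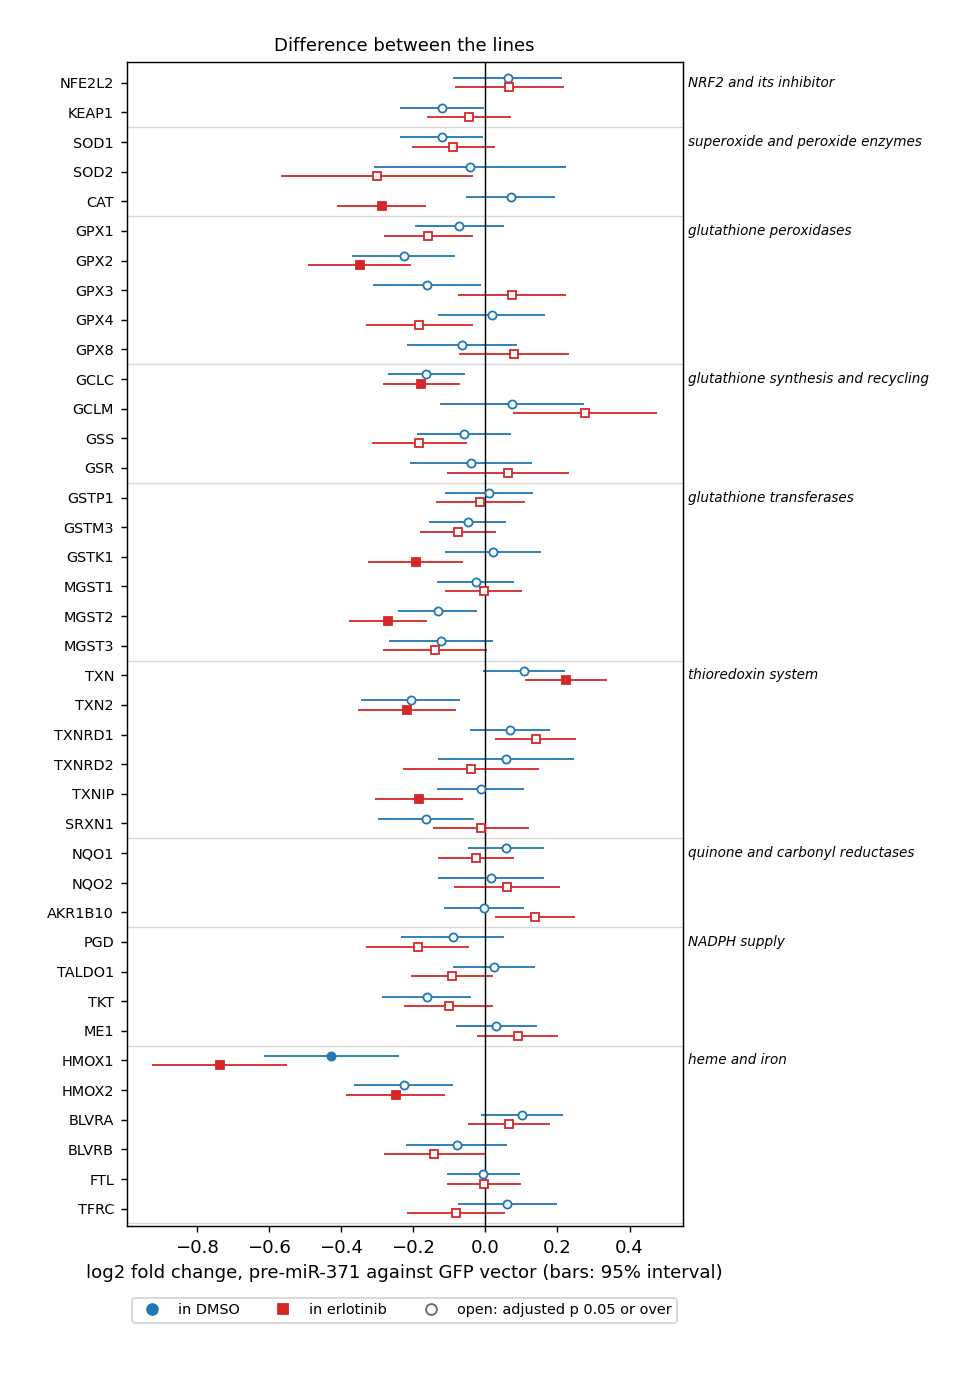
Log2 fold change of pre-miR-371 against GFP vector cells for the 39 genes, grouped by role, in DMSO (circles) and erlotinib (squares). Bars are 95% intervals from limma and open symbols have an adjusted p of 0.05 or over. HMOX1 lies farthest from 0 at -0.43 and -0.74, and most other genes lie within 0.3 of 0.

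Some genes had probe sets that gave other values for the lines. For TFRC a second probe set with a mean of 12.6 was lower in pre-miR-371 cells, by -0.27 in DMSO (adjusted p = 0.0333 from limma with every probe set tested) and -0.42 in erlotinib (adjusted p = 0.00159), whereas the brightest TFRC probe set gave 0.06 and -0.08. Another TFRC probe set, with a mean of 5.73 near background, was lower in erlotinib (-0.38, adjusted p = 0.0320 from limma with every probe set tested). For GSTM3 a second probe set with a mean of 6.43 differed by -0.64 and -0.56 (adjusted p = 0.00523 and 0.00372 from limma), against -0.05 and -0.08 on the brightest. For GCLM a probe set with a mean of 10.5 was higher by 0.66 in erlotinib (adjusted p = 0.00849 from limma), against 0.28 on the brightest. Between the lines in erlotinib, second probe sets of GCLC (-0.19), HMOX2 (-0.08) and TXN2 (-0.11) and both further ones of TXNIP (-0.18 each) did not pass. The second CAT probe set was lower in pre-miR-371 cells in erlotinib like the first (-0.42, adjusted p = 0.00806 from limma). Which transcripts each probe set reads was not tested.

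The erlotinib responses of the lines were also compared directly. Of the 39 genes, 0 had a higher response in pre-miR-371 cells, where 1.44% of all genes tested did. A lower response was called for 1, CAT (2.56%), where 0.561% of all genes had one (adjusted p under 0.05 from limma). At an unadjusted p under 0.05 the counts were 1 and 3 of the 39, where 7.75% and 7.29% of all genes tested passed. The rise of CAT was smaller by 0.36 on the log2 scale (difference -0.36, SE 0.08, 95% interval -0.53 to -0.18, adjusted p = 0.0442 from limma). This call survived the loss of GFP vector DMSO replicate 1 and of no other array (adjusted p up to 0.112 from limma), and was also lost with every probe set tested, with probe sets averaged and with arrays centred on their medians. For HMOX1 the difference was -0.31 (95% interval -0.57 to -0.04, adjusted p = 0.249 from limma) and for GSTK1 it was -0.21 (-0.40 to -0.03, adjusted p = 0.258). The differences of the 38 genes that did not pass lay between -0.31 and 0.23, with 95% intervals that reached 0.14 to 0.38 to either side.

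Of the 65 other pathway genes, 1 was higher and 2 were lower in pre-miR-371 cells in DMSO, where 1.62% and 3.64% of all genes tested were. In erlotinib 6 were higher and 10 lower, where 6.5% and 9.46% were. EPHX1, microsomal epoxide hydrolase, was lower in both (-0.33 and -0.48), as was ABCC1, an exporter of glutathione conjugates (-0.28 and -0.29). MT2A, a metallothionein, was higher in DMSO (0.25, adjusted p = 0.0280 from limma) and was the only one of the 65 whose erlotinib response differed between the lines (-0.37, adjusted p = 0.0356). GSTZ1, which isomerizes maleylacetoacetate, was lower in erlotinib (-0.45), as was MSRA, which repairs oxidized methionine (-0.31).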

How the data were processed

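The files hold log2 expression values that the authors deposited for each probe set on 12 Affymetrix Hgu133plus2 arrays. RMA and affy are named in the submitters' processing notes and quantile normalization in the methods, without their versions. Background correction, normalization and summary over probes are therefore already in the values, which limits how far a shift of all genes could be seen.

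Of 54675 probe sets, 41097 were annotated to 1 gene symbol, 1801 to several and 11777 to none. The brightest probe set of each gene (highest mean) was kept, giving 19775 genes. Array groups came from the labels. All 4 groups were fitted together in limma 3.58.1 (R 4.3.3, lmFit and eBayes) without a block, with contrasts for erlotinib in each line, for the lines under each treatment and for the difference of responses, and p-values were adjusted over all genes (Benjamini-Hochberg, threshold 0.05). The fit was tested on simulated data. A mean under 6 is called near background.

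Every listed gene is accounted for. Array values are given for the most often called genes of each group and for all genes called between the lines. Of other pathway genes, counts and genes among the 4 with the smallest p in a comparison are named. Genes and lists were chosen with earlier results of these data known. Alternatives covered probe set choice, a filter on dim genes, the arrays fitted, the replicate block, normalization, the variance model, array weights, single arrays left out and the call rule. Figures were drawn with matplotlib.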

Additional observations from a re-analysis of the deposited data

Results flagged for a closer look

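The erlotinib response of CAT differed between the lines by the test of the difference itself, with a log2 difference of -0.36 (pre-miR-371 minus GFP vector, adjusted p = 0.0442 from limma). The CAT arrays lay apart between erlotinib and DMSO in both lines, and the call was lost without any of 11 of the 12 arrays.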

How the results depend on the processing

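The counts of the erlotinib comparisons moved by over 1.5 times only with the added fold limit, to 11 higher and 3 lower for GFP vector cells, with 11 and 2 for the pre-miR-371 line. With single arrays left out they lay between 21 and 23 higher and 5 and 7 lower, and between 21 and 24 higher and 5 and 7 lower, and 26 of the 30 calls in each line held whichever array was left out. With each gene read as the mean of its probe sets, NFE2L2 (-0.102), GSR (-0.0538) and TXN (0.0861) in GFP vector cells, BLVRA (-0.0515) for the pre-miR-371 line, and MGST3 (0.0703) and PGD (0.115) between the lines in erlotinib changed sign, and none of these passed there. The means include dim probe sets.

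In DMSO the count of lower genes was 3 with the mean of all probe sets, 8 with a mean of at least 6 required, 0 with only the groups compared, 8 with trend and robust variance (1 higher), 9 with array weights, 0 with the fold limit, 11 unadjusted, and 0 to 2 without single arrays. In erlotinib the count of lower genes was 5 with every probe set tested, with only the groups compared and with arrays centred on their medians, 16 with trend and robust variance, 1 with the fold limit, 15 unadjusted, and 4 to 11 without single arrays. The count of higher genes there was 4 with a mean of at least 6, 3 with trend and robust variance, 3 with array weights, 0 with the fold limit, 4 unadjusted, and 0 to 2 without single arrays. For the difference of responses the count of lower genes was 0 with the mean of all probe sets, with every probe set tested, with centred arrays and with the fold limit, 2 with trend and robust variance, 3 unadjusted (1 higher), and 0 to 1 without single arrays. Repeating quantile normalization left 0 genes higher and 1 lower between the lines in DMSO, and 1 higher and 10 lower in erlotinib. The cause of these shifts in the counts was not tested.

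The deviations of arrays with the same replicate number correlated at -0.06 to 0.20 over 18 pairs, 7 of them over 0.1. Arrays with different numbers correlated at -0.20 to 0.11 over 36 pairs, 1 of them over 0.1. Of the 12 arrays, 10 correlated best with their own number. Arrays with the same number were thus more often over 0.1, so a weak pairing may be present, and the main fit used no block. With the replicate block 22 genes were higher and 8 lower with erlotinib in GFP vector cells, against 24 and 7 for the pre-miR-371 line, 0 and 1 between the lines in DMSO, 2 and 7 in erlotinib, and 0 and 1 in the difference of responses. The block ended the calls of BLVRA in GFP vector cells (adjusted p = 0.0530 from limma) and of GSTK1 (0.0505) and TXNIP (0.0573) between the lines in erlotinib. It added GCLM as lower in GFP vector cells (0.0173) and as higher between the lines in erlotinib (0.0160), and KEAP1 as higher with erlotinib in pre-miR-371 cells (0.0433).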
